A study of Mus musculus with 12 samples.

Results

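The glycolysis genes examined here code for a glucose transporter, enzymes along the route from glucose to lactate, and a kinase that inhibits pyruvate dehydrogenase. They were taken by symbol from a fixed list of 10 (Slc2a1, Hk1, Hk2, Pfkp, Aldoa, Pgk1, Eno1, Pkm, Ldha and Pdk1), and where several probe sets carried a symbol the one with the highest mean over all arrays stood for the gene. Of the 10 genes, 9 had a probe set of their own among the 17097 genes on the array, and all 9 passed the filter on dim genes that left 12595 genes for testing. No probe set carried the symbol Eno1 (enolase), so no value is given under that name.

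The samples were cells from colon adenomas of 3 mice, sorted by the status of Mex3a, which encodes an RNA-binding protein, and of Lgr5, whose receptor product is a marker of intestinal stem cells. The 4 populations were positive for both markers (Mex3a+ Lgr5+), for Mex3a alone (Mex3a+ Lgr5-), for Lgr5 alone (Mex3a- Lgr5+) or for neither (Mex3a- Lgr5-), with 1 array from each mouse in each population (12 arrays). All mice carry the label ki/+, which is not explained, and neither the cause of the adenomas, the age of the mice nor the way the markers were read is given in the sources used here. Every replicate pooled several adenomas of 1 mouse, with 500 sorted cells per array in MKL358 and 2000 in each of the other mice (MKL347, MKL367), and 25 ng of total RNA was amplified before labelling.

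Glycolysis turns glucose into pyruvate and yields ATP without oxygen, and its intermediates also feed the pentose phosphate pathway, serine synthesis and glycogen. Cells of many tumours take up much glucose and release lactate even where oxygen is present, while colonocytes, the absorptive cells of the colon, draw much of their energy from the oxidation of butyrate. Hypoxia-inducible factors and Myc are transcription factors known to act on many of these genes, and the hypoxia-inducible factors recognise the letters ACGTG or GCGTG.

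Because the genes are known targets of such factors, their promoters were searched for ACGTG and GCGTG on both strands in windows from 250 bases before to 50 bases after each RefSeq start (GRCm38.p6). The table held 18 windows for the 10 genes, Eno1 included, and some windows of one gene overlap. Of these, 14 (77.8%) held at least 1 of the motifs, against 43.8% of all 32851 windows in the table. ACGTG alone was in 8 of the 18 windows (44.4%) and in 19.6% of all windows, where GCGTG was in 32.4%. Shown here are the 4 genes with a single window (Slc2a1, Hk2, Pfkp and Pgk1) and the Ldha window with the most matches, with the matches to either motif, read on either strand, in capitals. The windows are chr4:119108495-119108794 for Slc2a1, chr6:82774405-82774704 for Hk2, chr13:6648722-6649021 for Pfkp, chrX:106186850-106187149 for Pgk1 and chr7:46845554-46845853 for Ldha. Hk2 and Pfkp lie on the minus strand and the others on the plus strand, and each window is written 5′ to 3′ along its gene.
Slc2a1: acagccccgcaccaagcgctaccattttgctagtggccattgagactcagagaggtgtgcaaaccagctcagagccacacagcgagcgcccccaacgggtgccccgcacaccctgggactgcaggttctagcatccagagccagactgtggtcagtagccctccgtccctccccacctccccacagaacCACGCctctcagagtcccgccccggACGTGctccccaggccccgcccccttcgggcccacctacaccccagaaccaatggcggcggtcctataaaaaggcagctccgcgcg
Hk2: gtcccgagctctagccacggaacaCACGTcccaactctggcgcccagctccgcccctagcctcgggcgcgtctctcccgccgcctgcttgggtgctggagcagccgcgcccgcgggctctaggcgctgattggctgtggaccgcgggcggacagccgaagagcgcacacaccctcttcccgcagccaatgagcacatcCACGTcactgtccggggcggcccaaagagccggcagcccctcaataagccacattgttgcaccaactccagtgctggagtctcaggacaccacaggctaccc
Pfkp: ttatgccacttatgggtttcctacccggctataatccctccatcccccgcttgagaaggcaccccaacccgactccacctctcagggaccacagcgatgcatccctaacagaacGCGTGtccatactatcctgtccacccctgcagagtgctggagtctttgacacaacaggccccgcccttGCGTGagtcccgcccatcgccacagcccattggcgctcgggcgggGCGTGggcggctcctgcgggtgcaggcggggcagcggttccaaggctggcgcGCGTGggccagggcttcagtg
Pgk1: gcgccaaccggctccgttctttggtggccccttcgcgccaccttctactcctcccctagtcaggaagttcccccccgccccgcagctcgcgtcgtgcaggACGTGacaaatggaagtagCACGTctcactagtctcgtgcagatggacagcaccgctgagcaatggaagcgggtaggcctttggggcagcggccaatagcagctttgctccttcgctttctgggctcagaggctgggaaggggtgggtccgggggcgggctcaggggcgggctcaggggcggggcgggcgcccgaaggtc
Ldha: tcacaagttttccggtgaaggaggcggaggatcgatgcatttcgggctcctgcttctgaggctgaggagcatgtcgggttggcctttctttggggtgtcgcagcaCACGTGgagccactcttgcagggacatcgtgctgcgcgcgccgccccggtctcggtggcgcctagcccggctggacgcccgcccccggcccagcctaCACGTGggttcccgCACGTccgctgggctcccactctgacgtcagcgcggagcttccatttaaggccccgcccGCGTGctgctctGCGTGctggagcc
The Hk2 and Pgk1 windows each held ACGTG 2 times and GCGTG 0 times, and the Pfkp window held GCGTG 4 times and ACGTG 0 times. The Slc2a1 window held each motif 1 time. In the Ldha window ACGTG was found 5 times and GCGTG 2 times, and 4 of the 5 come from the palindrome CACGTG, which stands there 2 times and reads as ACGTG on both strands. CACGTG is also the E-box that Myc recognises, and it was in 7.15% of all windows. These matches describe the letters, and binding was not measured.

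The deposited values are log2 signals. Groups were compared with limma, with p-values adjusted over all 12595 genes, and a gene was called where its adjusted p was under 0.05. The Mex3a transcript averaged 7.02 in Mex3a+ Lgr5+ and 6.91 in Mex3a+ Lgr5- cells, against 6.44 in Mex3a- Lgr5+ and 6.12 in Mex3a- Lgr5- cells (log2 difference 0.69, limma adjusted p = 0.00162; 0.0615 without mouse MKL347). The Lgr5 transcript differed by 1.55 between Lgr5+ and Lgr5- cells (SE 0.14, limma adjusted p = 0.000872). It was also higher in Mex3a+ than in Mex3a- cells (0.82, limma adjusted p = 0.0014, and 0.0664 without MKL347). That difference was 1.27 in Lgr5- cells (0.0021) and 0.36 in Lgr5+ cells (0.318). The Mex3a transcript was not called within Lgr5+ cells (0.58, 0.0579) or between the single positive populations (0.47, 0.125). With the mouse as a replicate block both passed (0.0085 and 0.0283). Array medians lay between 4.86 and 4.92. Epithelial markers were present on every array, with a mean level over 11 genes between 9.71 and 10.63. The level was lower on Mex3a+ arrays. It was 9.79 to 10.09 in Mex3a+ Lgr5+ and 9.71 to 10.03 in Mex3a+ Lgr5- cells. In Mex3a- Lgr5+ cells it was 10.30 to 10.46, and in Mex3a- Lgr5- cells 10.40 to 10.63.

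Glycolysis genes were lower in Mex3a+ than in Mex3a- adenoma cells. In the average over both Lgr5 states (6 arrays against 6), 7 of the 9 genes fell (Hk1, Hk2, Pfkp, Aldoa, Pgk1, Ldha and Pdk1) and 0 rose, where 17.3% of all tested genes were called lower and 9.91% higher. The falls ran from 1.13-fold for Aldoa to 1.75-fold for Hk1. The median log2 difference of the 9 genes was -0.31, against -0.01 over all tested genes, of which 47.4% had a higher estimate. All 9 estimates were negative, and each was negative in 3 of 3 mice. Mouse enters none of these fits. With the mouse as a replicate block all 9 genes were called lower, Slc2a1 and Pkm included, and so were 25.3% of all genes. For 5 genes (Hk1, Hk2, Aldoa, Pgk1 and Ldha) no Mex3a+ array reached the lowest Mex3a- array, while for Slc2a1, Pfkp, Pkm and Pdk1 the arrays overlapped. The share of all tested genes without such overlap was not counted, so the lack of overlap only describes these genes. In sorted pools, fewer cells of one kind and less RNA per cell cannot be told apart. Markers of colonocytes moved with the same contrast: of 10 tested, 9 were lower and 1 higher (Slc9a3, named after its value was seen, log2 difference 0.96, limma adjusted p = 0.0463), with 0 called higher without mouse MKL347, without MKL367 or after median centring, and their mean level was 5.55 to 5.89 in Mex3a+ Lgr5+ cells, 5.73 to 6.75 in Mex3a+ Lgr5- cells, 7.71 to 8.34 in Mex3a- Lgr5+ cells and 8.45 to 9.03 in Mex3a- Lgr5- cells. With the mouse as a replicate block 9 colonocyte markers were lower and 1 higher without each mouse in turn. Their part in the glycolysis differences was not tested.

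**Figure D1:**
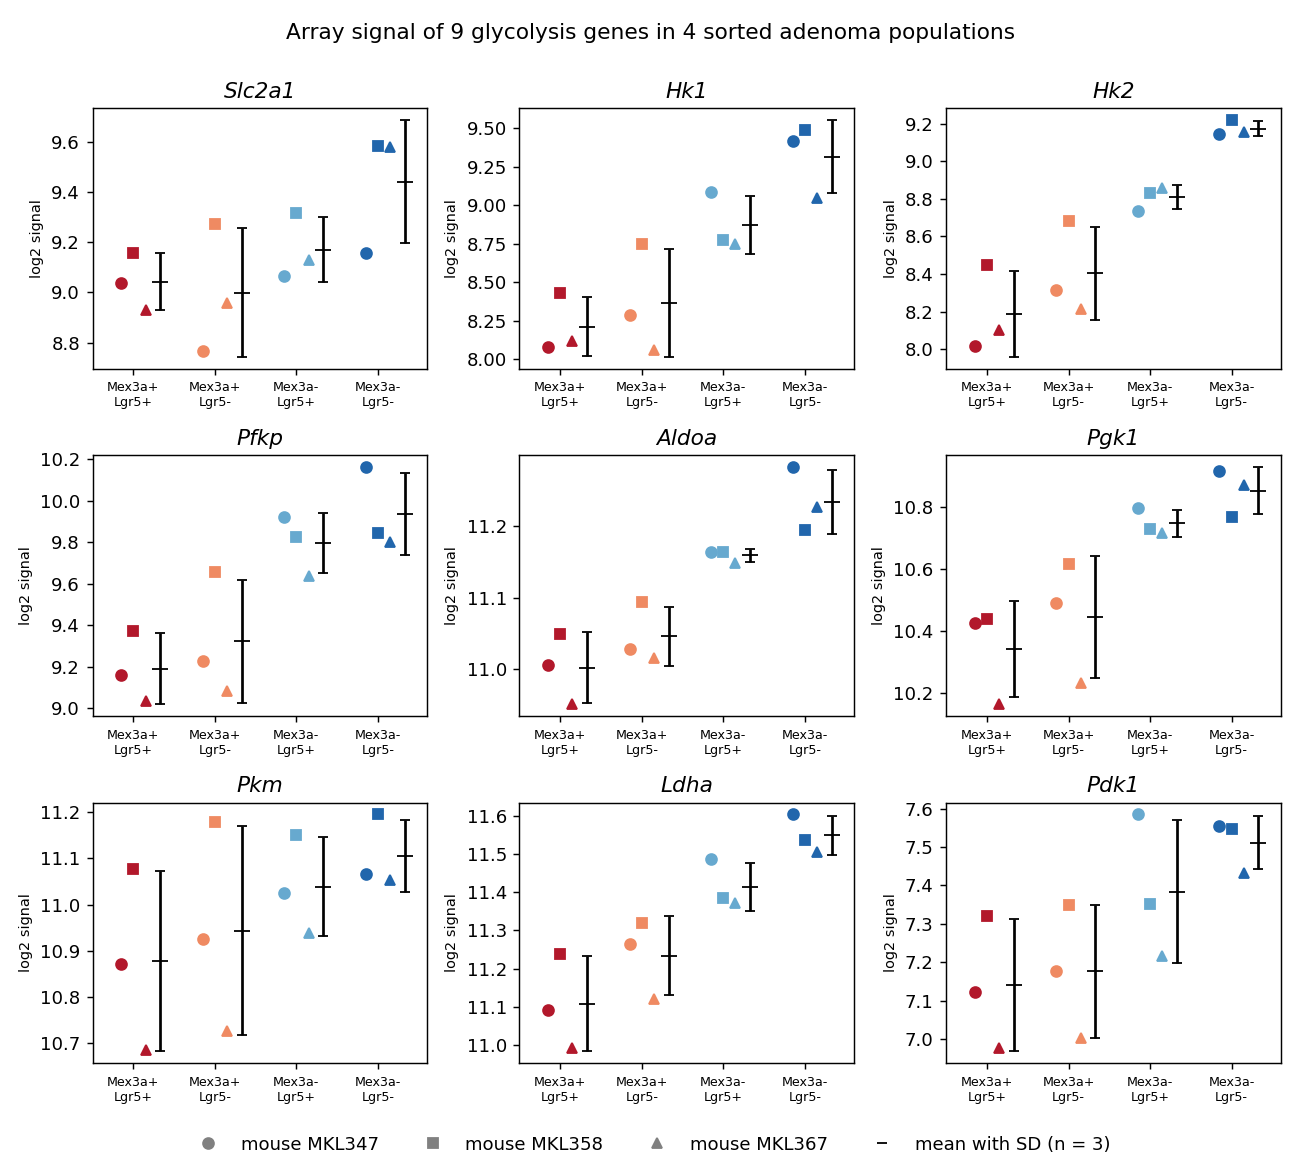
Log2 signal of the 9 glycolysis genes on each of the 12 arrays, by sorted population, with the mean and SD of 3 mice beside each group; each panel has its own vertical axis, which does not start at 0. Mex3a+ populations stand left of Mex3a- populations and have lower means in every panel, with no overlap of the 6 and 6 arrays for Hk1 (by a margin too small to see), Hk2, Aldoa, Pgk1 and Ldha.

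Uptake and trapping of glucose came first along the pathway. Hk2 encodes the hexokinase that rises in many tumours and binds the mitochondrial surface. For mice MKL347, MKL358 and MKL367, in this order throughout, its log2 signal was 8.01, 8.45 and 8.10 in Mex3a+ Lgr5+ cells and 8.31, 8.68 and 8.21 in Mex3a+ Lgr5- cells, against 8.74, 8.83 and 8.86 in Mex3a- Lgr5+ cells and 9.15, 9.22 and 9.16 in Mex3a- Lgr5- cells. The Mex3a- arrays lay close together within each Lgr5 state, and the Mex3a+ arrays spread more, with mouse MKL358 highest in both. Hk2 was 1.62-fold lower in Mex3a+ cells (log2 difference -0.70, SE 0.10, limma adjusted p = 0.000432). In fits with no mouse term it was the only one of the 9 called without each mouse in turn (highest adjusted p = 0.0325). With the mouse as a replicate block, Hk1, Hk2, Pfkp, Aldoa, Pgk1 and Ldha were called without each mouse in turn. The highest limma adjusted p among them was 0.0225 (Aldoa without MKL367). For the 9 genes, values without a mouse are from fits with no mouse term unless the block is named. Hk1 encodes the hexokinase found in most tissues. It measured 8.08, 8.43 and 8.12 in Mex3a+ Lgr5+ cells and 8.29, 8.75 and 8.06 in Mex3a+ Lgr5- cells, against 9.09, 8.77 and 8.75 in Mex3a- Lgr5+ cells and 9.41, 9.49 and 9.05 in Mex3a- Lgr5- cells. The highest Mex3a+ array, the MKL358 array of Mex3a+ Lgr5- cells, stood at 8.75 and so did the lowest Mex3a- array, so the groups are apart only in the fourth decimal. Hk1 fell by 0.80 on the log2 scale (SE 0.13, limma adjusted p = 0.000969), and without mouse MKL347 the estimate was -0.67 (adjusted p = 0.0627).

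Slc2a1 encodes GLUT1, the transporter that brings glucose into most cells. Its signal was 9.04, 9.16 and 8.93 in Mex3a+ Lgr5+ cells and 8.77, 9.27 and 8.96 in Mex3a+ Lgr5- cells, against 9.07, 9.32 and 9.13 in Mex3a- Lgr5+ cells and 9.16, 9.58 and 9.58 in Mex3a- Lgr5- cells. Mouse MKL358 was highest or joint highest in each population, and the Mex3a+ and Mex3a- arrays overlapped. The log2 difference of -0.285 (SE 0.10) did not pass (limma adjusted p = 0.0629), and with the mouse as a replicate block it did (adjusted p = 0.00381; 0.0551 with the block and without mouse MKL367). Without the block it passed without the MKL358 array of Mex3a+ Lgr5- cells (adjusted p = 0.0214), without the MKL347 array of Mex3a- Lgr5- cells (0.0224) and after median centring (0.0375). Of 25 alternative fits 7 called Slc2a1, and the highest limma adjusted p among the 25 was 0.397.

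Pfkp, Aldoa and Pgk1, which act in the middle of the pathway, were called lower. Pfkp encodes the platelet form of phosphofructokinase, which catalyses the committed step. It measured 9.16, 9.37 and 9.04 in Mex3a+ Lgr5+ cells and 9.23, 9.65 and 9.08 in Mex3a+ Lgr5- cells, against 9.92, 9.82 and 9.64 in Mex3a- Lgr5+ cells and 10.16, 9.85 and 9.80 in Mex3a- Lgr5- cells. A single Mex3a+ array, again the Lgr5- array of mouse MKL358, lay above the lowest Mex3a- array. Pfkp was 1.53-fold lower in Mex3a+ cells (log2 difference -0.61, SE 0.11, limma adjusted p = 0.0018; 0.0789 without mouse MKL347).

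Aldoa encodes aldolase A, which splits fructose 1,6-bisphosphate. Its signal was 11.01, 11.05 and 10.95 in Mex3a+ Lgr5+ cells and 11.03, 11.09 and 11.02 in Mex3a+ Lgr5- cells, against 11.16, 11.16 and 11.15 in Mex3a- Lgr5+ cells and 11.28, 11.19 and 11.23 in Mex3a- Lgr5- cells. The groups did not overlap although the fall was only 1.13-fold (log2 difference -0.17, SE 0.03, limma adjusted p = 0.0034), since the arrays within each population lay close together. The call was lost without mouse MKL347 (adjusted p = 0.0953) and without mouse MKL367 (0.0927). After a further quantile normalization the difference was -0.11 (adjusted p = 0.0303). All 4 Aldoa probe sets are of a kind that can share sequence with related transcripts, so its level is less certain than the others.

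Pgk1 encodes phosphoglycerate kinase, the first enzyme of the pathway to make ATP. It measured 10.43, 10.44 and 10.16 in Mex3a+ Lgr5+ cells and 10.49, 10.61 and 10.23 in Mex3a+ Lgr5- cells, against 10.80, 10.73 and 10.71 in Mex3a- Lgr5+ cells and 10.92, 10.77 and 10.87 in Mex3a- Lgr5- cells. Mouse MKL367 was the lowest in both Mex3a+ populations, and no Mex3a+ array reached a Mex3a- array. Pgk1 was 1.32-fold lower (log2 difference -0.40, SE 0.07, limma adjusted p = 0.0016; 0.0552 without mouse MKL347). A probe set with the symbol Eno1b, among whose synonyms RefSeq lists Eno1, averaged 11.03 in Mex3a+ Lgr5+ and 11.22 in Mex3a+ Lgr5- cells, against 11.34 in Mex3a- Lgr5+ and 11.45 in Mex3a- Lgr5- cells. It was not used in place of Eno1, and it was looked up after values of the other genes were known (log2 difference -0.27, limma adjusted p = 0.0057; 0.0713 without mouse MKL347 and 0.0912 without mouse MKL367).

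At the end of the pathway the genes differed in how far they moved. Ldha encodes the lactate dehydrogenase subunit that favours the formation of lactate. It measured 11.09, 11.24 and 10.99 in Mex3a+ Lgr5+ cells and 11.26, 11.32 and 11.12 in Mex3a+ Lgr5- cells, against 11.49, 11.39 and 11.37 in Mex3a- Lgr5+ cells and 11.60, 11.54 and 11.50 in Mex3a- Lgr5- cells. The Mex3a+ and Mex3a- arrays did not overlap, and within the Mex3a- arrays those of Lgr5+ cells all lay below those of Lgr5- cells. Ldha was 1.24-fold lower (log2 difference -0.31, SE 0.05, limma adjusted p = 0.0011; 0.0568 without mouse MKL347).

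Pkm encodes the pyruvate kinase of most tissues and of tumours, and its probe set does not tell the splice forms apart here. Its signal was 10.87, 11.08 and 10.69 in Mex3a+ Lgr5+ cells and 10.93, 11.18 and 10.73 in Mex3a+ Lgr5- cells, against 11.03, 11.15 and 10.94 in Mex3a- Lgr5+ cells and 11.07, 11.20 and 11.05 in Mex3a- Lgr5- cells. Mouse MKL358 was highest in all 4 populations, and the Mex3a+ and Mex3a- arrays overlapped. The log2 difference of -0.16 (SE 0.08) was the smallest of the 9 and did not pass (limma adjusted p = 0.180). It passed with the mouse as a replicate block (adjusted p = 0.00629) and without mouse MKL358 (0.0342), but not with the block and without mouse MKL347 (0.0504) or mouse MKL367 (0.127).

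Pdk1 encodes pyruvate dehydrogenase kinase 1, which switches off the entry of pyruvate into the tricarboxylic acid cycle. The symbol here is that gene, and not the signalling kinase once known by the same letters. It measured 7.12, 7.32 and 6.98 in Mex3a+ Lgr5+ cells and 7.18, 7.35 and 7.0 in Mex3a+ Lgr5- cells, against 7.58, 7.35 and 7.22 in Mex3a- Lgr5+ cells and 7.56, 7.55 and 7.43 in Mex3a- Lgr5- cells. In mouse MKL358 the Mex3a+ Lgr5- and Mex3a- Lgr5+ arrays lay at the same level. The difference of -0.29 (SE 0.09, limma adjusted p = 0.0370) passed by a small margin. The call was lost without mouse MKL347 (adjusted p = 0.310), without mouse MKL367 (0.161), without any of 8 single arrays (0.0593 to 0.0943) and after a further quantile normalization (0.131).

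The other probe sets of these genes gave the same direction. The 9 genes have 18 probe sets with a single symbol, and all 18 had a negative average Mex3a difference. Adjusted over all probe sets past the filter, 14 of the 18 were called without the mouse and 18 with it as a replicate block. These include the probe sets used above, and of the 9 others 7 were called without the mouse. The share of all probe sets called is not given here. Over genes, 17.3% were called lower in this comparison, and 25.3% with the block. The second Hk1 probe set differed by -0.56 (limma adjusted p = 0.00729), that of Pfkp by -0.39 (0.0349) and that of Pgk1 by -0.39 (0.00882). The dimmer Slc2a1 probe set had a larger estimate than the one used (-0.41, limma adjusted p = 0.0750), and the same held for both other Pdk1 probe sets (-0.64, adjusted p = 0.0333, and -0.50, adjusted p = 0.00383). The 3 further Aldoa probe sets ranged from -0.12 to -0.25. Probe sets of one gene on one array are not replicates.

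**Figure D2:**
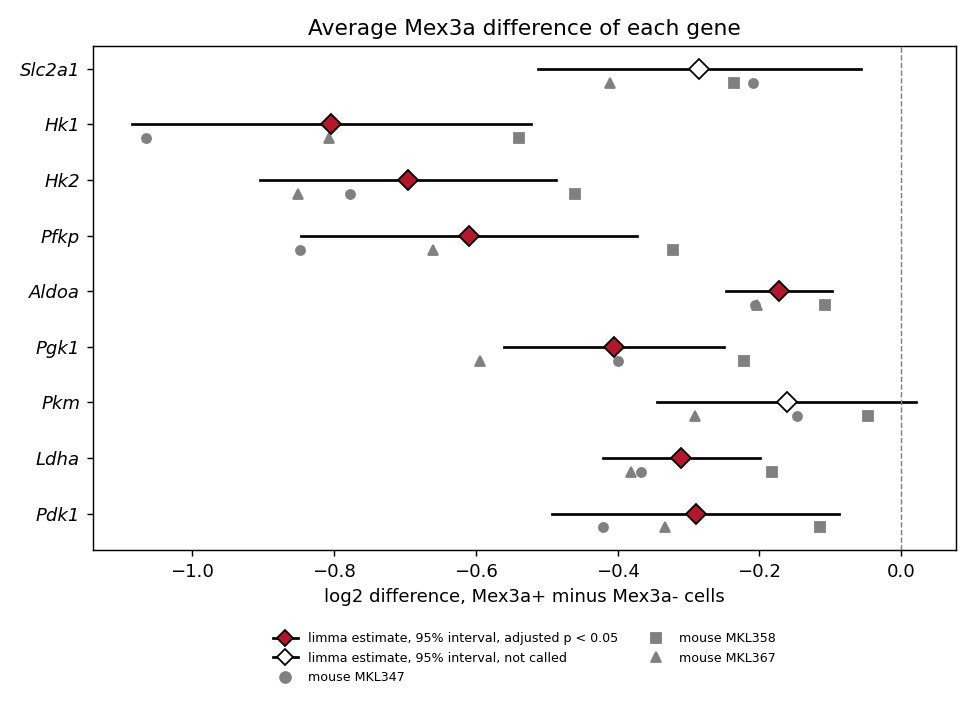
Average Mex3a difference of each gene (Mex3a+ minus Mex3a- cells, log2 scale) as the limma estimate with its 95% interval, filled where the adjusted p was under 0.05, with the difference within each mouse below it. All estimates lie left of 0, and mouse MKL358 lies nearest to 0 for 8 of the 9 genes.

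Within each mouse the fall was smallest in MKL358, whose pools had 500 cells, for 8 of the 9 genes, the exception being Slc2a1, for which it was smallest in MKL347. The median over the 9 genes was -0.40 in MKL347, -0.22 in MKL358 and -0.41 in MKL367. It was largest in MKL347 for 4 genes and in MKL367 for 5. Neutrophil markers stood higher in mouse MKL358: the mean level over 7 genes was 5.37 and 5.98 on its Mex3a+ arrays, against 6.61 and 7.04 on its Mex3a- arrays, and 4.88 to 5.57 on the arrays of the other mice. Of the 10 neutrophil genes of the list on the array, 7 passed the filter, and Cxcr2, Ngp and Camp did not. Without mouse MKL358 the main test called 8 of the 9 genes lower. Without mouse MKL347 it called 1 (Hk2) and without mouse MKL367 it called 5. Over all genes the calls, in either direction, were 3484 without MKL358, 1034 without MKL347 and 1546 without MKL367. With all mice they were 3422. Calls were thus lost over all genes as well without MKL347 or MKL367, and the losses cannot be taken as particular to the glycolysis genes. With the mouse as a replicate block, 7 of the 9 genes remained called without MKL347, 9 without MKL358 and 6 without MKL367. Over all genes 3535, 4634 and 3585 were called there. All 9 estimates were negative in each of these fits.

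The Mex3a difference was present in both Lgr5 states. In Lgr5+ cells 5 of the 9 genes fell (Hk1, Hk2, Pfkp, Pgk1 and Ldha), where 4.8% of all genes were called lower. In Lgr5- cells 6 fell, the same 5 and Aldoa, where 11.7% of all genes were called lower. With the mouse as a replicate block the counts were 6 (Aldoa added) in Lgr5+ cells, against 13.2% of all genes, and 9 in Lgr5- cells, against 21.1% of all genes. In Lgr5+ cells the log2 differences were -0.66 for Hk1 (SE 0.18, limma adjusted p = 0.0477), -0.62 for Hk2 (0.0210), -0.60 for Pfkp (0.0347), -0.40 for Pgk1 (0.0318) and -0.31 for Ldha (0.0263). In Lgr5- cells they were -0.95 for Hk1 (SE 0.18, limma adjusted p = 0.0055), -0.77 for Hk2 (0.0036), -0.61 for Pfkp (0.0181), -0.41 for Pgk1 (0.0175), -0.31 for Ldha (0.0121) and -0.19 for Aldoa (0.0211). With 3 arrays against 3 these calls rested on few arrays. In Lgr5+ cells 0 genes stayed called without mouse MKL347 or MKL367, or without the double positive array of either, or the Mex3a- Lgr5+ array of MKL347 or MKL358, and 2 without the Mex3a- Lgr5+ array of MKL367. In Lgr5- cells 0 stayed called without mouse MKL347 and 1 without MKL367, 2 without the MKL367 array of Mex3a+ Lgr5- cells, and 3 without the MKL347 array of Mex3a- Lgr5- cells, while leaving out MKL358 gave 7. These counts are from fits without the mouse. The calls over all genes in those fits are not given here, so the losses cannot be taken as particular to the glycolysis genes. With the mouse as a replicate block, 4 were called in Lgr5+ cells without MKL347 and 5 without MKL367. Over all genes 1396 and 1595 were called there. In Lgr5- cells 6 were called with the block and without MKL347, and 2429 over all genes.

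**Figure D3:**
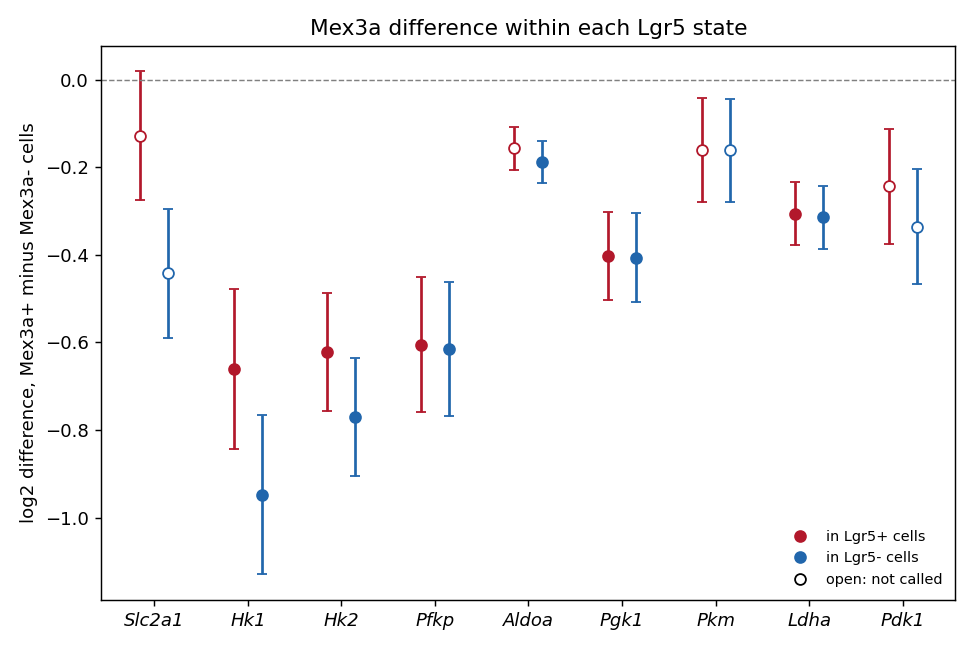
Mex3a difference of each gene (Mex3a+ minus Mex3a- cells, log2 scale, bars are limma standard errors) in Lgr5+ cells (left of each pair) and in Lgr5- cells (right), with filled points where the adjusted p was under 0.05. The points of a pair nearly coincide for Pfkp, Pgk1, Pkm and Ldha and lie farthest apart for Slc2a1 and Hk1, where the Lgr5- point is lower.

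Whether the Mex3a difference itself depended on the Lgr5 state was tested by the interaction. None of the 9 genes was called by limma, without the mouse (0 at an unadjusted p under 0.05) or with it as a replicate block (1 at an unadjusted p under 0.05), and 0.0% of all genes were called by either. All 9 interaction estimates were above 0, where 57.2% of all genes had a higher estimate. They ranged from 0.0007 for Pkm to 0.31 for Slc2a1 (SE 0.21, 95% interval -0.14 to 0.77) and 0.29 for Hk1 (95% interval -0.28 to 0.85). For Pgk1 the interval was -0.31 to 0.31 and for Ldha -0.21 to 0.23, so differences of that size were not detectable with these arrays.

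By Lgr5 status alone the genes were not called. In the average over both Mex3a states, 0 of the 9 passed limma's test and 3 had an unadjusted p under 0.05 (Hk1, Hk2 and Ldha), where 0.0397% of all genes were called. All 9 estimates were nonetheless lower in Lgr5+ than in Lgr5- cells, from -0.06 for Aldoa to -0.30 for Hk1. Over all genes 53.5% of the estimates were higher in Lgr5+ cells, and 783 of 12595 genes had an unadjusted p under 0.05. Hk2 came closest (log2 difference -0.29, SE 0.10, limma adjusted p = 0.529, and 0.0528 with the mouse as a replicate block, with which 1.8% of all genes were called). Within Mex3a+ cells 0 genes passed and 0 had an unadjusted p under 0.05 (2 with the block). There 0.0% of all genes were called, and 0.0715% with the block. The Slc2a1 estimate was 0.04 and the other 8 were negative, where 58.5% of all genes had a higher estimate. Within Mex3a- cells 0 passed and 2 had an unadjusted p under 0.05 (Hk1, -0.44, and Hk2, -0.37), as had 785 of all 12595 genes. There 0.0318% of all genes were called, or 1.62% with the block, with which Hk2 had an adjusted p of 0.0816.

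The 4 population means of these genes stood in one order. For 8 of the 9 genes the mean was highest in Mex3a- Lgr5- cells, then in Mex3a- Lgr5+, Mex3a+ Lgr5- and Mex3a+ Lgr5+ cells, and for Slc2a1 the last 2 were exchanged. Without the mouse in the fit, limma called no neighbours in this order different for any of the 9 genes. When the mouse was a replicate block, Mex3a+ Lgr5- and Mex3a- Lgr5+ cells differed for 5 genes, given with the single positive populations. The outer groups differed in more genes without the mouse: in Mex3a+ Lgr5+ against Mex3a- Lgr5- cells 6 of 9 genes fell, where 11.3% of all genes were called lower, and with the mouse as a replicate block 9 fell, where 19.1% were. Hk1 was lower by 1.10 on the log2 scale in this comparison (log2 difference -1.10, SE 0.18, limma adjusted p = 0.0019), Hk2 had -0.99 (0.000748), Pfkp -0.75 (0.0060), Pgk1 -0.51 (0.0050), Ldha -0.44 (0.0018) and Aldoa -0.23 (0.0065). Without mouse MKL347 0 of the 9 were called by the fit without the mouse. With the mouse as a replicate block 7 were called without MKL347, and 2483 over all genes. This comparison shares its arrays with those above and adds no separate evidence.

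Between the populations positive for a single marker the differences were smaller. Of the 9 genes 0 were called in Mex3a+ Lgr5- against Mex3a- Lgr5+ cells by limma without the mouse (6 at an unadjusted p under 0.05), where 4.08% of all genes were called lower. Over all 12595 genes 2900 had an unadjusted p under 0.05, in either direction. With the mouse as a replicate block 5 of the 9 genes were lower, where 14.9% of all genes were. These were Hk1 (log2 difference -0.50, adjusted p = 0.0148), Hk2 (-0.41, 0.0098), Pfkp (-0.47, 0.0091), Pgk1 (-0.30, 0.0151) and Ldha (-0.18, 0.0268). With the block, 0 were called without mouse MKL347 or without mouse MKL367, and 5 without MKL358. Without the MKL358 array of Mex3a+ Lgr5- cells, the array that lay highest among the Mex3a+ arrays for all 9 genes, 3 were called without any block.

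Among the 9 genes the profiles over the 12 arrays were alike. Pearson's r over 12 arrays ran from 0.626 (Slc2a1 with Pdk1) to 0.968 (Aldoa with Ldha) over the 36 pairs, and from 0.837 over the 21 pairs without Slc2a1 and Pkm. These arrays share mice and the split by Mex3a, so r is given as a description. The genes of the whole table most like each of them by r were Cbr2 (0.983) and Abcc3 (0.977) for Hk2, Paqr5 (0.981) and Ifi27l2b (0.977) for Hk1, and Sh2d4a (0.988) and Ppargc1b (0.984) for Pfkp. For Aldoa they were Coro2a (0.978) and Plekha2 (0.977), for Pgk1 Cwh43 (0.981) and Serpinb1a (0.979), and for Ldha Serpinb1a (0.985) and Myof (0.983). Pdk1 was nearest to Aldh1a3 (0.967) and Nab1 (0.954), Pkm to Crip2 (0.951) and Tnfrsf11a (0.945), and Slc2a1 to Krt13 (0.932) and Foxj2 (0.930).

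Other steps of glucose use were read from lists of pathway genes, again in the average Mex3a comparison, in which 17.3% of all genes were called lower and 9.91% higher (25.3% lower with the mouse as a replicate block). The count of each list is to be read against those shares. Values without a mouse are from fits with no mouse term unless the block is named. The named genes of the lists called here numbered 32. Without MKL347, MKL358 and MKL367 those still called were 13, 29 and 20. With the mouse as a replicate block they were 28, 32 and 28. Calls over all genes in these fits were 1034, 3484 and 1546, and 3535, 4634 and 3585 with the block. Of 8 other glucose transporters tested, 2 fell and 0 rose, with a median log2 difference of 0.05 (0 fell without mouse MKL347 and 1 without MKL367). They were Slc5a1, the sodium-coupled glucose transporter (-0.64, SE 0.14, limma adjusted p = 0.0051), and Slc2a10 (-0.61, 0.0071), while Slc2a9, known as a urate transporter, had 0.19 (0.277). Of 14 other glycolytic enzymes 5 fell and 1 rose, with a median of -0.10, and after a further quantile normalization 1 was lower and 2 were higher. With the block 6 fell and 2 rose, without mouse MKL347 0 fell and 1 rose, and without MKL367 2 fell and 2 rose. With the block, 5 fell and 2 rose without MKL347, and 4 fell and 2 rose without MKL367. Bpgm, which makes 2,3-bisphosphoglycerate, had -0.42 (limma adjusted p = 0.0051), and Tpi1, triosephosphate isomerase, -0.17 (0.0155; 0.250 after quantile normalization). Without mouse MKL347 the adjusted p was 0.127 for Slc5a1, 0.138 for Slc2a10, 0.0599 for Bpgm and 0.146 for Tpi1, and without mouse MKL367 it was 0.163 for Slc2a10 and 0.223 for Tpi1.

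The gene that rose was Aldoc, which encodes the brain-type aldolase, a relative of Aldoa. It averaged 8.56 ± 0.31 in Mex3a+ Lgr5+ cells and 8.20 ± 0.15 in Mex3a+ Lgr5- cells, against 7.12 ± 0.06 in Mex3a- Lgr5+ cells and 7.10 ± 0.32 in Mex3a- Lgr5- cells (SD, n = 3 each). The lowest Mex3a+ array, at 8.05, lay above the highest Mex3a- array, at 7.43. Aldoc was 2.41-fold higher in Mex3a+ cells (log2 difference 1.27, SE 0.12, limma adjusted p = 6.7e-05), higher in 3 of 3 mice, and stayed called without each mouse. Aldoa and Aldoc thus moved in opposite directions. Among 4 tested genes for the enzymes that make and break fructose 2,6-bisphosphate, an activator of phosphofructokinase, 1 rose and 0 fell. Pfkfb3 rose by 0.41 (SE 0.12, limma adjusted p = 0.0265), a call lost without mouse MKL347 (0.342), without mouse MKL358 (0.0747) and without any of 7 single arrays (0.0529 to 0.0650). Pfkfb2 had -0.14 (0.108, and 0.0438 with the block) and Pfkfb4 -0.25 (0.115, and 0.0213 with the block).

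For the fate of pyruvate and lactate, 2 of 6 carrier genes fell and 0 rose (1 fell without mouse MKL347, without MKL367, or after quantile normalization). Slc16a1 encodes MCT1, which carries lactate, pyruvate and butyrate across the cell membrane. It averaged 6.90 ± 0.48 in Mex3a+ Lgr5+ cells and 7.28 ± 0.52 in Mex3a+ Lgr5- cells, against 8.26 ± 0.19 in Mex3a- Lgr5+ cells and 8.56 ± 0.22 in Mex3a- Lgr5- cells (SD, n = 3 each). This was a 2.49-fold lower level in Mex3a+ cells with no overlap between arrays (log2 difference -1.32, SE 0.19, limma adjusted p = 0.000548), called without each mouse as well. Mpc1, a subunit of the mitochondrial pyruvate carrier, had -0.26 (0.0314; 0.196 without mouse MKL347, 0.141 without MKL367, 0.0530 to 0.0755 without any of 7 single arrays, and 0.201 after quantile normalization), and Emb, a partner protein of monocarboxylate carriers, -0.08 (0.333).

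Of 9 genes for pyruvate dehydrogenase and its regulators 3 fell and 1 rose, with the mouse as a replicate block 4 fell and 2 rose, without mouse MKL347 0 fell and 0 rose, and without MKL367 0 fell and 1 rose. With the block, 2 fell and 1 rose without MKL347, and 3 fell and 1 rose without MKL367. Pdp2, a phosphatase that switches the complex on, was higher in Mex3a+ cells (log2 difference 0.73, SE 0.12, limma adjusted p = 0.0014; 0.0611 without mouse MKL347), with no overlap between the 6 and 6 arrays. Pdha1, a subunit of the complex, had -0.40 (0.0080; 0.0708 without MKL347 and 0.186 without MKL367). Pdk3, a relative of Pdk1, had -0.37 (0.0257; 0.144 without MKL347, 0.0967 without MKL367, and 0.0509 to 0.0676 without any of 5 single arrays). Of 15 genes of the tricarboxylic acid cycle, 11 fell and 0 rose, with a median of -0.32, and 8 fell after quantile normalization. With the block 12 fell, and 6 fell without mouse MKL347 and 6 without MKL367. Sdhb (-0.46, limma adjusted p = 0.000113) and Sdhd (-0.72, 0.000216), subunits of succinate dehydrogenase, and Suclg1 (-0.67, 0.000184), a subunit of succinyl-CoA ligase, were called without each mouse.

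**Figure D4:**
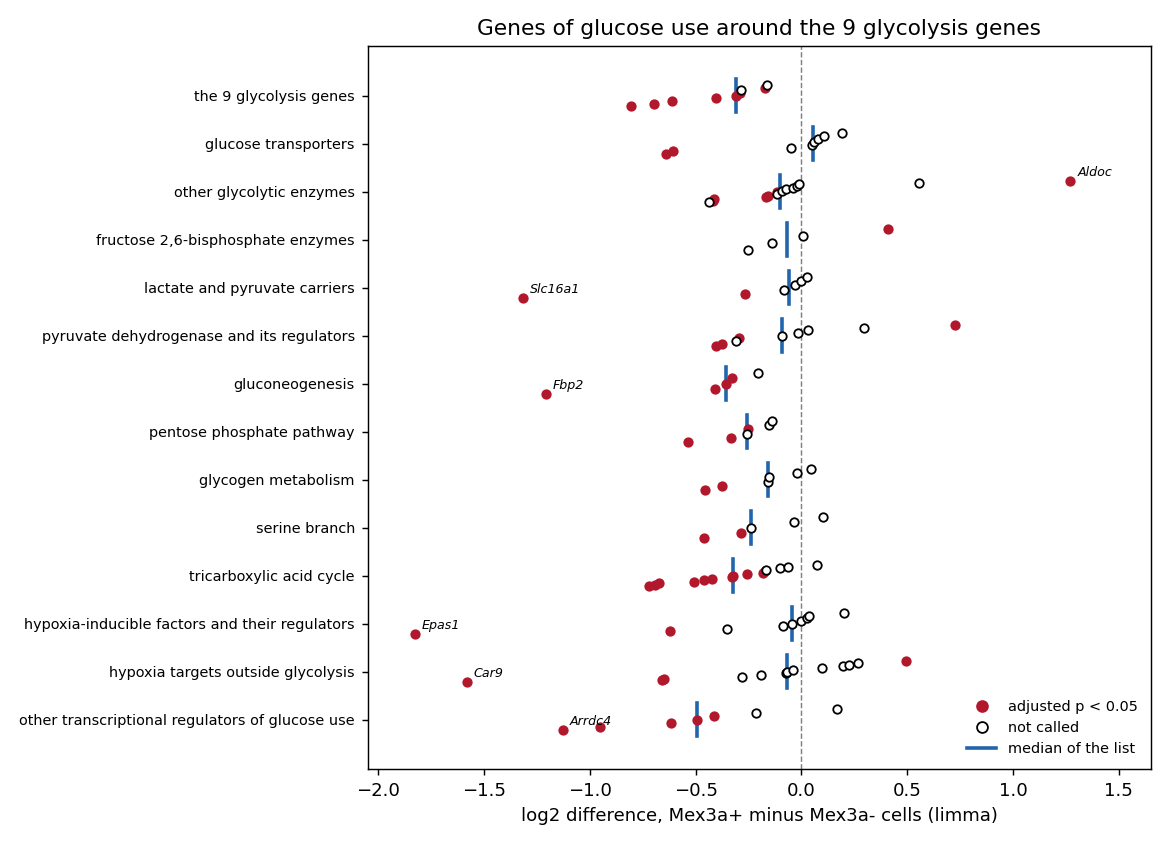
Average Mex3a difference (Mex3a+ minus Mex3a- cells, log2 scale) of each tested gene in the glycolysis set and in 13 lists around it, red where limma's adjusted p was under 0.05, with a blue line at each list's median. Aldoc stands alone at the right with 1.27, and Epas1, Car9, Slc16a1, Fbp2 and Arrdc4 lie farthest to the left.

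In branches off glycolysis several genes fell and 0 rose. Of 5 gluconeogenesis genes 4 fell, 5 with the block, 2 after quantile normalization, 0 without mouse MKL347 and 2 without MKL367. With the block 4 fell without each mouse in turn. Fbp2, a fructose 1,6-bisphosphatase, was 2.31-fold lower (log2 difference -1.21, SE 0.24, limma adjusted p = 0.0030; 0.0753 without mouse MKL347), Pck2, the mitochondrial phosphoenolpyruvate carboxykinase, had -0.41 (0.0038; 0.0817 without MKL347) and Pcx, pyruvate carboxylase, -0.33 (0.0185; 0.0696 to 0.137 without any of the 3 mice, and 0.0654 after quantile normalization). Of 6 pentose phosphate genes 3 fell and 0 rose (5 fell with the mouse as a replicate block, 2 after quantile normalization, and 1 without mouse MKL347 or MKL367). H6pd, the hexose 6-phosphate dehydrogenase of the endoplasmic reticulum, had -0.54 (0.000503) and was called without each mouse. Pgd had -0.33 (0.0154; 0.198 without MKL347 and 0.0660 without MKL367), and Tkt, transketolase, -0.25 (0.0344; 0.267 without MKL347, 0.136 without MKL367, 0.0552 to 0.0847 without any of 8 single arrays, and 0.0968 after quantile normalization).

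Of 6 glycogen genes 2 fell and 0 rose (0 fell without mouse MKL347 and 1 without MKL367). They were Pgm2, a phosphoglucomutase (-0.46, limma adjusted p = 0.0055; 0.107 without mouse MKL347), and Ugp2, which makes UDP-glucose (-0.37, 0.0276; 0.182 without MKL347, 0.256 without MKL367, and 0.0510 to 0.0704 without any of 7 single arrays), and Pygb, a glycogen phosphorylase, had -0.15 (0.205). Of 5 genes of the serine branch 2 fell and 0 rose, 3 fell with the block, 1 after quantile normalization, 0 without mouse MKL347 or MKL367 and 1 without MKL358. Shmt1 had -0.46 (limma adjusted p = 0.0132; 0.134 without MKL347 and 0.134 without MKL367) and Psat1 -0.28 (0.0408), a call lost without each of the mice (0.0602 to 0.278), without any of 8 single arrays (0.0595 to 0.103) and after quantile normalization (0.0861). Shmt2 had -0.24 (0.0801, and 0.0123 with the block).

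Of 9 hypoxia-inducible factors and regulators 2 fell and 0 rose, 3 fell with the mouse as a replicate block, and 1 fell without mouse MKL347 or MKL367. Without MKL358 3 fell and 1 rose. Epas1, which encodes HIF-2α, was 3.55-fold lower in Mex3a+ cells (log2 difference -1.83, SE 0.14, limma adjusted p = 1.12e-05). It averaged 5.22 ± 0.32 in Mex3a+ Lgr5+ cells and 5.28 ± 0.29 in Mex3a+ Lgr5- cells, against 6.98 ± 0.12 in Mex3a- Lgr5+ cells and 7.17 ± 0.30 in Mex3a- Lgr5- cells (SD, n = 3 each), with no overlap. Egln3, a prolyl hydroxylase that marks these factors for destruction and is itself a hypoxia target, had -0.62 (0.0128; 0.152 without mouse MKL347 and 0.120 without MKL367). Hif1a had -0.35 and did not pass (limma adjusted p = 0.0750), but passed with the mouse as a replicate block (0.000894) and without mouse MKL358 (0.0121). Of 13 hypoxia targets outside glycolysis, 3 fell and 1 rose, with a median of -0.07. With the block 4 fell and 3 rose, without mouse MKL347 or MKL367 3 fell and 0 rose, and without MKL358 4 fell and 2 rose. Car9, a carbonic anhydrase of the cell surface, was 2.99-fold lower (log2 difference -1.58, SE 0.22, limma adjusted p = 0.000489), Car12, another, had -0.65 (0.000243) and Higd1a -0.66 (0.000378). These 3 were called without each mouse.

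Other regulators of glucose use were lower in 5 of 7 cases, with 0 higher and a median of -0.49 (6 with the mouse as a replicate block). Mlx, the partner of the glucose-sensing factors ChREBP and MondoA, was 1.93-fold lower (log2 difference -0.95, SE 0.08, limma adjusted p = 3.71e-05). Txnip and Arrdc4, arrestin-like proteins that restrain glucose uptake and are known targets of these factors, had -0.61 (0.00056) and -1.13 (0.000498). All 3 were called without each mouse. By the average Lgr5 effect 0 genes of the 13 lists were called by limma without the mouse. At an unadjusted p under 0.05 there were 2 hypoxia targets, 1 gene among the hypoxia-inducible factors and their regulators, and 1 other glycolytic enzyme. When the mouse was a replicate block, with which 1.8% of all genes were called, 1 hypoxia target and 1 carrier were called lower. These were Bnip3 (log2 difference -0.39, adjusted p = 0.0115) and Slc16a3 (-0.26, 0.0377), named after their values were seen.

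Markers of other cell types that a sorted pool could hold were read beside these differences. Of 8 goblet cell genes, all 8 fell with Mex3a, with a median of -1.51, and 9 of 11 general epithelial genes fell, with a median of -0.37 (4 fell without mouse MKL347 and 6 without MKL367, and with the block 9 fell and 1 rose). With the block, 9 epithelial genes fell without MKL347 and 9 without MKL367. For neutrophils 1 of 7 genes passed (Il1b, log2 difference -0.83, limma adjusted p = 0.0160; 0.122 without mouse MKL367), or 4 with the mouse as a replicate block and 3 without MKL358, and for macrophages 1 of 7 (Cd14, -1.02, 0.000413), or 2 with the block, while Adgre1, C1qb and Itgam did not pass the filter. The macrophage mean level was 5.89 to 6.0 on Mex3a+ arrays, against 5.89 to 6.39 on Mex3a- arrays. Lymphocyte genes gave 0 of 5 by limma (0 at an unadjusted p under 0.05), and Cd3e, Ms4a1 and Ptprc did not pass the filter. Fibroblast and smooth muscle genes gave 0 of 8 (1 unadjusted, 1 with the block), but their mean level was 6.65 on the MKL367 array of Mex3a- Lgr5+ cells, against 5.23 to 5.59 on the others. Endothelial genes gave 0 of 8 (2 unadjusted, 1 with the block) and red blood cell genes 0 of 3 (1 unadjusted, 1 with the block). The 3′ minus 5′ signal of the Gapdh control probe sets was -0.05 in Mex3a+ cells and -0.06 in Mex3a- cells, and that of Actb was -0.64 in Mex3a+ cells and -0.65 in Mex3a- cells. The part of these cells in the glycolysis differences was not tested.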

How the data were processed

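Expression was measured on 12 Affymetrix mouse arrays. Values deposited by the authors are on the log2 scale and come from RMA, per the submitters' processing notes, and were taken unchanged. Which software made them is not given in the sources used here. Of 45141 probe sets, 28898 carry 1 gene symbol in GEO's platform annotation, 551 several and 15588 none; those with several or none were left out. For the 7180 of 17097 genes with more than 1 probe set, the brightest on average was used. Genes above the 40th percentile of all values (4.40) on at least 3 arrays were kept (12595).

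Genes were fitted with limma 3.58.1 (R 4.3.3), with 1 mean per group over 12 arrays, an intensity trend, no mouse term and Benjamini-Hochberg adjustment over 12595 genes. Every adjusted p in the text is limma's, and tests are 2-sided. The 9 comparisons were the average Mex3a and Lgr5 effects, each within the states of the other, the double positive against the double negative cells, the single positive populations, and the interaction. Arrays of 1 mouse pair the populations. After removal of group means, r over genes was 0.349 to 0.694 for the 18 same-mouse pairs, whereas it was -0.691 to 0.152 for the 48 pairs from different mice. Fits with the mouse as a block are therefore given beside those without it where the count of calls in a list or comparison differs. Alternatives were the mouse as a random effect, 2 other filters, 2 scalings, other uses of probe sets, no trend, array weights, and fits that left out a mouse or an array. The block without each mouse, and the alternatives for genes of the lists, were added after the data were seen.

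The glycolysis genes, the 13 pathway lists and the 9 cell type lists were chosen from general knowledge with earlier results of these data known. Named genes are the glycolysis genes, Mex3a, Lgr5, up to 3 of each list with the smallest p in the average Mex3a effect (for the cell types, those the text needs), and for each glycolysis gene the 2 with the highest r; symbols of clones were passed over, and others are said to be chosen after their values were seen. The test was checked on simulated data. The number of arrays limits the precision. Figures used matplotlib 3.10.9.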

Additional observations from a re-analysis of the deposited data

How the results depend on the processing

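The 9 average Mex3a estimates were negative under all 25 alternatives for each gene, and no called value changed sign in any comparison; uncalled estimates changed sign 10 times for Lgr5 within Mex3a+ cells, 1 time between the single positive populations and 40 times in the interaction. The number of the 9 genes called in the average Mex3a effect (7) was 6 to 9 under the alternatives that kept all arrays, and 1 to 8 when a mouse or an array was left out. Leaving out a mouse leaves 8 arrays. In Lgr5+ cells the count (5) was 3 after further quantile normalization and 2 without the intensity trend, and 0 to 5 with a mouse or array left out. In Lgr5- cells (6) it was 3 after further quantile normalization, 9 with the mouse as a replicate block, and 0 to 7 with a mouse or array left out. Between double positive and double negative cells (6) it was 9 with the block and 0 to 7 with a mouse or array left out. Between the single positive populations (0) it was 5 with the mouse as a replicate block, 5 with the mouse as a random effect, 5 with array weights, and 0 to 3 with a mouse or array left out. For the 3 Lgr5 comparisons and the interaction it was 0 under every alternative. Over all genes the average Mex3a effect had 5192 calls with the block, against 3422 without it, and with the block 3535, 4634 and 3585 without MKL347, MKL358 and MKL367. Among 39 named genes of the pathway lists under 25 alternatives, of the values that could be computed, 870 stayed on the same side of the threshold (called or not), 84 called values lost their call, 19 uncalled values gained one and 0 changed sign while called.

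The limits are few arrays, pools of unequal size, and amplified RNA. Among the genes named from the glycolysis set and the pathway lists, Pdk1, Tpi1, Mpc1, Pcx, Tkt, Psat1 and Gapdh lost their calls after further quantile normalization; the cause was not tested. Over all genes, leaving out MKL347, MKL358 and MKL367 gave 1034, 3484 and 1546 calls.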

Other observations

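A few further genes of the lists were looked up after their values had been seen. Ldhb, the lactate dehydrogenase subunit that favours pyruvate, had a log2 difference of 0.56 between Mex3a+ and Mex3a- cells (limma adjusted p = 0.0553, and 0.000278 with the mouse as a replicate block), opposite in sign to Ldha. Bnip3, a hypoxia target of mitophagy, had 0.49 (limma adjusted p = 0.0241; 0.149 without mouse MKL347, 0.0638 without MKL367, and 0.0545 to 0.0632 without any of 3 single arrays), opposite in sign to Car9, Car12 and Higd1a. Gapdh, often used as a constant reference, had -0.11 (limma adjusted p = 0.0276; 0.196 without MKL347, 0.205 without MKL367, 0.0568 to 0.0686 without any of 7 single arrays, and 0.0755 after quantile normalization). Slc16a3, which encodes the lactate exporter MCT4, had -0.001, against -1.32 for Slc16a1.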
